A study of Mus musculus with 20 samples.

Results

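The chemokine receptors described here are 9 genes, Ccr1, Ccr2, Ccr3, Ccr7, Cxcr2, Cxcr3, Cxcr4, Cxcr6 and Cx3cr1, taken by name from the 25219 genes of the expression table. All 9 passed the filter on low counts in every comparison. RNA was sequenced from inguinal white adipose tissue (iWAT) and brown adipose tissue (BAT) of male mice on a mixed C57Bl/6 background, in 4 groups of 5 libraries, Control and Ai-α4KO in each tissue. Ai-α4KO mice carried floxed alleles of the α4 gene (Igbp1) and a tamoxifen-inducible Cre (CreERT2) under the Adiponectin promoter, which acts in adipocytes. Control mice carried the floxed alleles without the Cre transgene, and the labels call them WT. Both genotypes received 5 tamoxifen injections of 100 mg/kg over 6 days from 2 months of age, and tissue was taken 1 week after recombination. The labels name separate samples but do not state whether the same mouse gave both tissues, so the p-values measure the spread between these samples.

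Chemokine receptors are G protein-coupled receptors that couple mainly to Gαi and steer leukocytes along gradients of small secreted chemokines. CC receptors such as Ccr2 are best known on monocytes and macrophages, Cxcr2 on neutrophils, Cxcr3 and Cxcr6 on T and NK cells, and Ccr7 on naive lymphocytes and migrating dendritic cells. In adipose tissue, recruitment of Ccr2-bearing monocytes is a known feature of inflammation. Most of these receptors are thus genes of leukocytes, whereas the deletion was driven in adipocytes.

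Library totals ran from 24023371 to 50384446 counts. Igbp1 was at 67.2 ± 7.01 CPM in Control and 10.8 ± 0.394 CPM in Ai-α4KO iWAT (SD, n = 5 each), and at 93.9 ± 7.29 and 17.0 ± 4.83 CPM in BAT. In each tissue the genotypes did not overlap in Igbp1, and the direction fits the labels. CPM here is the count scaled by normalized library size. The summed level of 10 macrophage markers was 1143 to 1899 CPM in Control and 7217 to 9708 CPM in Ai-α4KO iWAT, and 301 to 563 CPM and 4253 to 6979 CPM in BAT. The summed level of 8 adipocyte markers moved the other way, from 23076 to 30850 CPM in Control down to 11867 to 16750 CPM in Ai-α4KO iWAT. Control iWAT libraries 1 and 4 stood apart, with 8 B cell markers summing to 541 and 210.2 CPM against 6.71 to 8.62 CPM in the other Control libraries, and 10 T cell markers summing to 252.4 and 285 CPM against 9.70 to 11.6 CPM. Results in iWAT that rest on these libraries are given with and without them. The 6 skeletal muscle markers summed to 797 to 8495 CPM in Control BAT and 11682 to 37750 CPM in Ai-α4KO BAT, and the part of this difference in the BAT results was not tested.

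Cxcr6, Ccr1, Ccr3 and Ccr2 lie within 303 kb of each other on chromosome 9 of mm10, with Xcr1 and Ccr1l1 among them. Ccr1 spans chr9:123962126-123968692 on the minus strand and Ccr2 chr9:124102183-124109140 on the plus strand. Cxcr2 lies on chromosome 1 at chr1:74153994-74161246 on the plus strand. Cxcr6 lies within Fyco1, which runs on the opposite strand, and the strand setting of the counting is not given in the sources used here.

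Ccr1, Ccr2 and Cxcr2 were the receptors that passed the test in both tissues. The 250 bases upstream of their RefSeq starts (GRCm38.p6) are shown 5′ to 3′ on the strand of the gene, with the core GAGGAA of the myeloid factor PU.1, or its reverse complement, in capitals. The windows are chr9:123968693-123968942 on the minus strand for Ccr1, chr9:124101933-124102182 on the plus strand for Ccr2 and chr1:74153744-74153993 on the plus strand for Cxcr2.
Ccr1: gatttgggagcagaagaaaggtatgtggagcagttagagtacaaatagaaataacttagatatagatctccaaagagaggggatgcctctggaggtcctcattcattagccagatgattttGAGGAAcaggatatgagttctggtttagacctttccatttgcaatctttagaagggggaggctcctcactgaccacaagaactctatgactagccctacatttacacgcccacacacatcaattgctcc
Ccr2: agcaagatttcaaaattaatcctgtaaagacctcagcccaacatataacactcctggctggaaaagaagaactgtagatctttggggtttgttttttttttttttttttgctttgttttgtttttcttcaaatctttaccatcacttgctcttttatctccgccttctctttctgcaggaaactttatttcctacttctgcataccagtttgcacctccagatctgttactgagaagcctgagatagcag
Cxcr2: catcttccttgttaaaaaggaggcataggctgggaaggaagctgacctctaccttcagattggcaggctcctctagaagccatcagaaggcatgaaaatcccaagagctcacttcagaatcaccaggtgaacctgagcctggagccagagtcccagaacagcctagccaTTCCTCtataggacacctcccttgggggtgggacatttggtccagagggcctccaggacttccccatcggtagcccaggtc
The window of Ccr2 holds no GAGGAA on either strand. In all, 6 motifs were searched on both strands of the windows of the 8 members with a RefSeq promoter and of 27025 promoters. GAGGAA was present in 4 of the 8 (Ccr1, Ccr3, Cxcr2 and Cxcr3) and in 23.1% of all promoters, and the NF-kB pattern in 5 of 8 and 45.4%. The AP-1 pattern TGANTCA was present in 1 of 8 (6.87% of all), the TATA box TATAAA in 1 of 8 (3504 of all promoters), and the C/EBP pattern TTGCNNAA (9.55%) and the IRF pattern (3.04%) in 0. A match is a description of the letters and shows no binding. Ccr7 had no entry in the promoter table.

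In iWAT, Ccr1 and Ccr2 rose by about an order of magnitude in Ai-α4KO mice and Cxcr2 rose less. With edgeR's quasi-likelihood test, 3 of the 9 receptors rose (adjusted p below 0.01 and at least 2-fold) and 0 fell, beside 11.3% of the 14604 genes tested that rose and 10.7% that fell. At an unadjusted p below 0.05, 0 receptors were lower as well. In 4 receptors every Ai-α4KO library was above every Control library, which held for 20.7% of all genes. The median log2 fold change was 0.82 over the receptors and 0.01 over all genes. In bulk tissue, more or fewer cells of a type cannot be told apart from more or less RNA per cell.

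**Figure D1:**
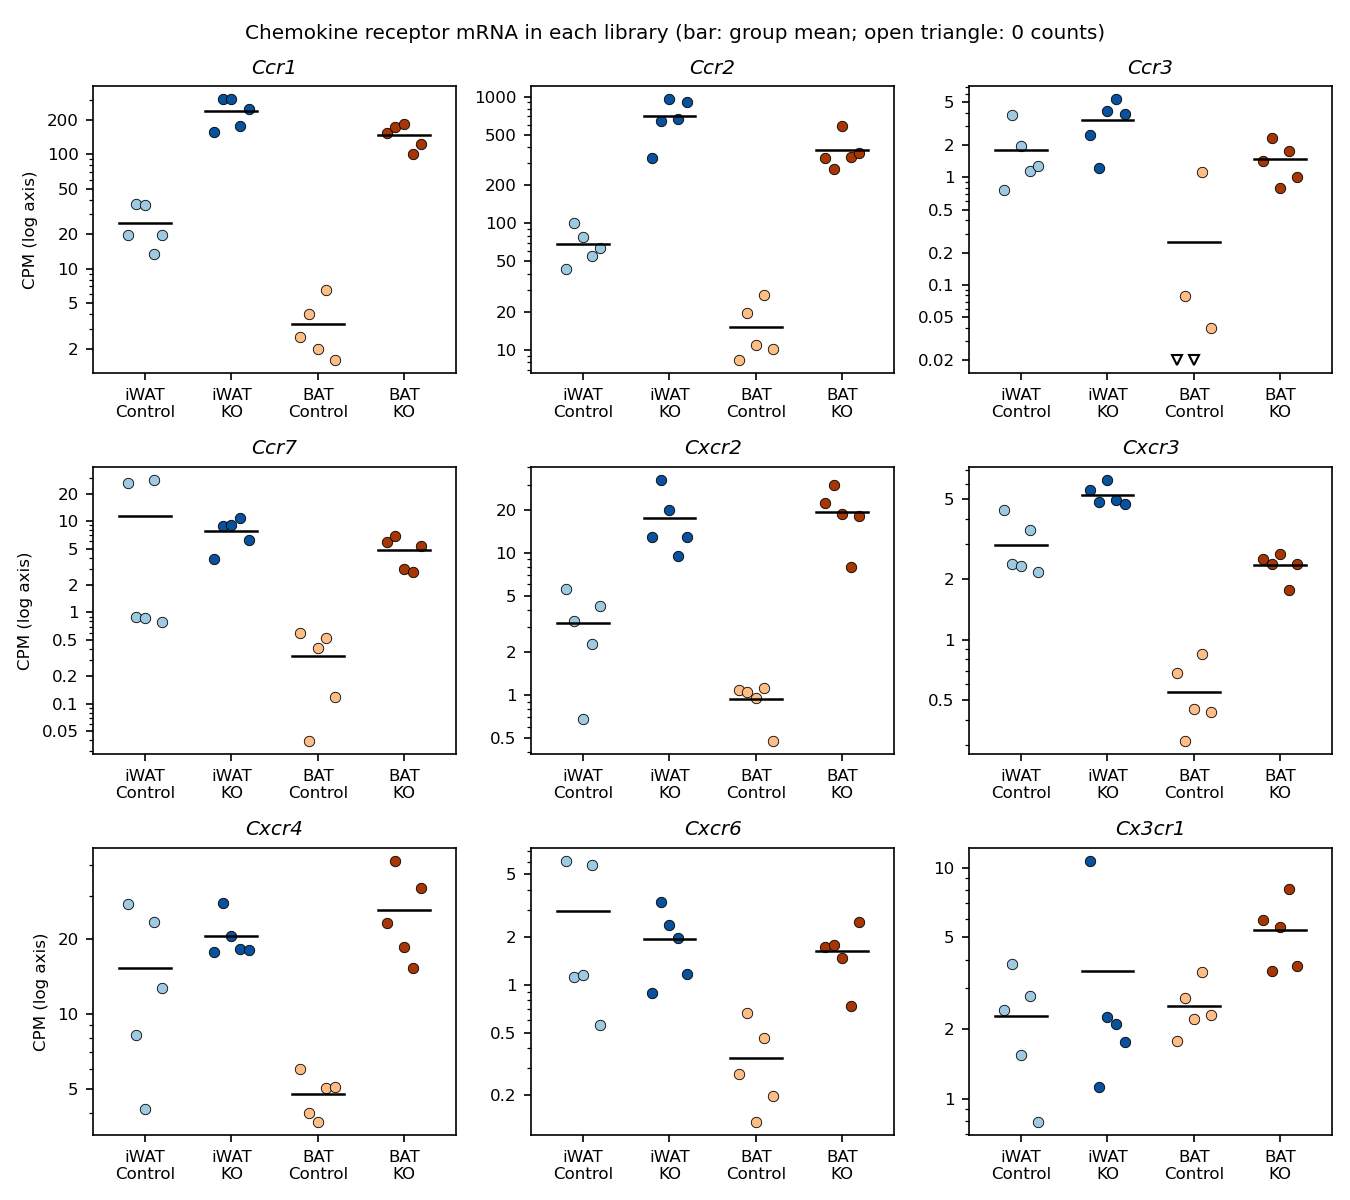
CPM of each receptor in every library (points, log axis) for the 4 groups of tissue and genotype, with bars at the group mean and open triangles for libraries with 0 counts. Ccr1, Ccr2 and Cxcr2 of Ai-α4KO libraries sit above all Control libraries in both tissues, while Ccr7 and Cxcr6 in Control iWAT split into 2 high and 3 low libraries.

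Ccr1 binds inflammatory CC chemokines such as Ccl3 and Ccl5. Its level in Control iWAT libraries 1 to 5 was 19.7, 36.5, 35.99, 13.3 and 19.5 CPM, and in Ai-α4KO libraries 155, 304, 303, 177 and 249.9 CPM. The lowest Ai-α4KO library was well above the highest Control library, and the log2 fold change was 3.24 (SE 0.32, edgeR adjusted p = 1.38e-05). Ccr2, the receptor for Ccl2 that draws monocytes from blood, was at 43.3, 99.7, 77.7, 55.4 and 64.4 CPM in Control and 325, 644, 958, 669.5 and 908 CPM in Ai-α4KO libraries. Its groups did not overlap, and the log2 fold change was 3.36 (SE 0.32, adjusted p = 1.07e-05 from edgeR). Cxcr2, the main neutrophil receptor for Cxcl1 and Cxcl2, was at 5.59, 3.32, 0.676, 2.29 and 4.22 CPM in Control and 13.03, 32.5, 20.2, 9.53 and 12.9 CPM in Ai-α4KO libraries. All Ai-α4KO values were above the Control range, and the log2 fold change was 2.44 (SE 0.50, adjusted p = 0.00169 from edgeR). Of 9 neutrophil markers, 7 were tested in iWAT and 3 of them rose (S100a8, S100a9 and Csf3r). Ngp and Camp, granule protein genes of maturing neutrophils, were at 23.9 and 12.7 CPM in Control library 1, while the other iWAT libraries of both genotypes had at most 0.597 CPM of Ngp and 0.420 CPM of Camp. The sums over the 9 markers overlapped, at 181 CPM in Control library 1, 19.6 to 65.7 CPM in the other Control libraries and 138 to 496 CPM in Ai-α4KO libraries, and their part in the result was not tested.

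Cxcr3, a receptor of activated T and NK cells for Cxcl9 and Cxcl10, was at 4.45, 2.39, 2.33, 3.53 and 2.17 CPM in Control and 5.54, 4.88, 6.25, 4.94 and 4.75 CPM in Ai-α4KO iWAT. The groups did not overlap, but the log2 fold change of 0.82 (SE 0.23, adjusted p = 0.0111 from edgeR) missed both thresholds. Ccr3, the eotaxin receptor of eosinophils, had a log2 fold change of 0.93 (SE 0.48, adjusted p = 0.120), with 0.762 to 3.82 CPM in Control and 1.23 to 5.37 CPM in Ai-α4KO libraries. Cxcr4, the receptor for Cxcl12 that retains cells in bone marrow and tissue, ran from 4.13 to 27.7 CPM in Control and from 17.8 to 27.98 CPM in Ai-α4KO libraries (log2 fold change 0.42, SE 0.42, adjusted p = 0.424). Cx3cr1, the fractalkine receptor of resident macrophages and patrolling monocytes, was at 2.41, 3.82, 1.54, 2.78 and 0.791 CPM in Control and 10.7, 1.12, 2.26, 2.10 and 1.76 CPM in Ai-α4KO iWAT. Ai-α4KO library 1 decided its sign, since the log2 fold change was 0.65 (SE 0.62, adjusted p = 0.399) with that library and -0.33 without it. Its 6 skeletal muscle markers summed to 4852 CPM, against 4.08 to 101 CPM in the other Ai-α4KO iWAT libraries, and their part was not tested. In Control iWAT the sum was 6292 CPM in library 4 and 14.3 to 161 CPM in the others.

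Ccr7 and Cxcr6 had the estimates that depended most on 2 Control libraries. Ccr7 was at 26.2 and 28.2 CPM in Control iWAT libraries 1 and 4 and at 0.901, 0.864 and 0.791 CPM in libraries 2, 3 and 5. The 5 Ai-α4KO libraries were at 3.86, 8.86, 8.98, 10.9 and 6.17 CPM, between these groups of Control libraries. The log2 fold change was -0.57 (SE 0.96, adjusted p = 0.643 from edgeR) with all libraries and 3.10 (adjusted p = 1.03e-04) without Control libraries 1 and 4. Cxcr6, the receptor for Cxcl16 on T and NK cells, was at 6.08 and 5.76 CPM in Control libraries 1 and 4 and at 1.12, 1.16 and 0.557 CPM in the others, against 0.886, 3.33, 2.39, 1.97 and 1.17 CPM in Ai-α4KO iWAT. Its log2 fold change was -0.60 (SE 0.65, adjusted p = 0.456) with all libraries and 0.96 (adjusted p = 0.117) without those 2. Cxcr4 was likewise higher in the same libraries, at 27.7 and 23.6 CPM against 4.13 to 12.7 CPM. Its log2 fold change of 0.42 with all libraries was 1.21 (adjusted p = 0.0110 from edgeR) without them, which missed the threshold on the adjusted p. Without Control libraries 1 and 4, 5 receptors passed the test in place of 3, with Ccr7 and Cxcr3 (1.12, adjusted p = 0.00104) added, beside 11.9% of all genes that rose in that fit. In the 3 Control libraries left, the T cell markers summed to 9.70 to 11.6 CPM and the NK cell markers to 3.72 to 7.02 CPM, against 16.2 to 55.1 and 14.5 to 37.3 CPM in Ai-α4KO iWAT, and their part in these calls was not tested.

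**Figure D2:**
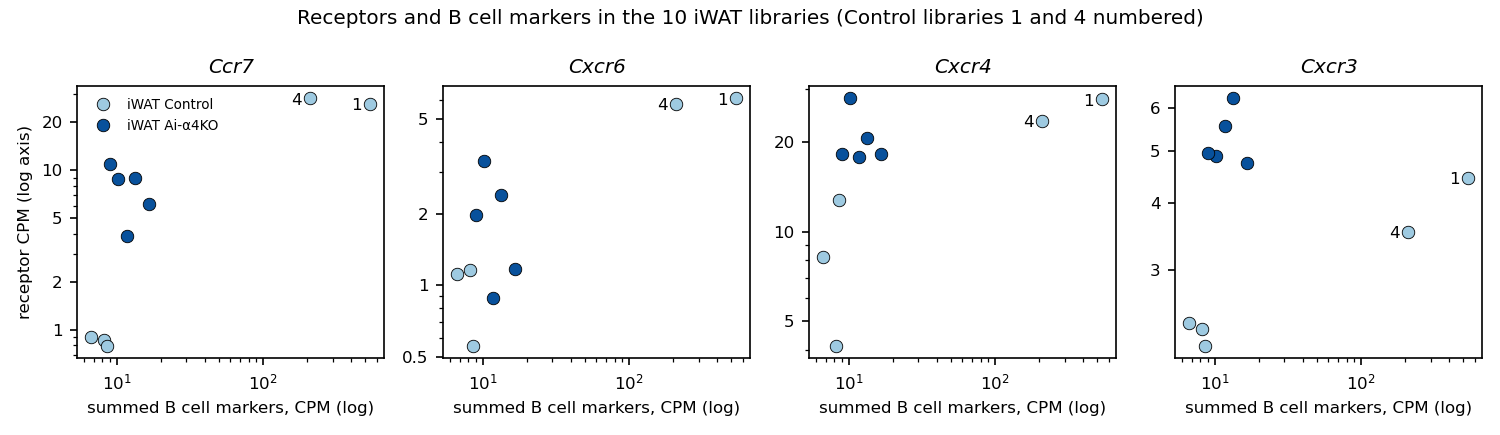
CPM of Ccr7, Cxcr6, Cxcr4 and Cxcr3 (vertical, log axis) against the summed CPM of 8 B cell markers (horizontal, log axis) in the 10 iWAT libraries, with Control libraries 1 and 4 numbered. These libraries, at 541 and 210.2 CPM of B cell markers, hold the highest Ccr7 and Cxcr6 values of the iWAT libraries.

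In BAT, 8 of the 9 receptors rose in Ai-α4KO mice by edgeR's test, all but Ccr3, and 0 fell, beside 18.2% of the 14344 genes tested that rose and 13.3% that fell. In BAT, too, 0 receptors were lower at an unadjusted p below 0.05. In 8 receptors the Ai-α4KO libraries were all above the Control libraries, which held for 23.5% of all genes. The median log2 fold change was 2.43 over the receptors and -0.03 over all genes.

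Ccr1 was at 2.504, 3.99, 1.99, 6.46 and 1.59 CPM in Control BAT and 152, 172, 184, 99.8 and 122 CPM in Ai-α4KO BAT. The groups were far apart, with a log2 fold change of 5.42 (SE 0.38, adjusted p = 2.70e-07 from edgeR). Ccr2 was at 8.33, 19.5, 10.9, 27.3 and 10.2 CPM in Control and 330.3, 269.6, 589, 335 and 359 CPM in Ai-α4KO BAT (log2 fold change 4.59, SE 0.37, adjusted p = 7.56e-07). Cxcr2 was at 1.09, 1.06, 0.952, 1.13 and 0.478 CPM in Control and 22.3, 29.8, 18.7, 7.98 and 18.3 CPM in Ai-α4KO BAT (log2 fold change 4.33, SE 0.36, adjusted p = 8.90e-07). Of 6 neutrophil markers tested in BAT 5 rose, and Ltf was at 0.36 (adjusted p = 0.559). The sum over the 9 in the table was 11.9 to 35.5 CPM in Control and 194 to 347 CPM in Ai-α4KO BAT, and its part was not tested.

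Ccr7 was at 0.592, 0.0391, 0.408, 0.529 and 0.119 CPM in Control and 5.91, 6.82, 3.01, 2.80 and 5.41 CPM in Ai-α4KO BAT. It rose with a log2 fold change of 3.78 (SE 0.52, adjusted p = 5.47e-05 from edgeR), although the Control counts were at most 15 per library. Cxcr4 was at 6.01, 3.99, 3.67, 5.01 and 5.06 CPM in Control and 23.3, 41.3, 18.6, 15.4 and 32.3 CPM in Ai-α4KO BAT (log2 fold change 2.43, SE 0.27, adjusted p = 1.09e-05). The lymphocyte receptors Cxcr6 and Cxcr3 rose by 2.19 (SE 0.44, adjusted p = 9.73e-04) and 2.05 (SE 0.30, adjusted p = 8.06e-05) on the log2 scale, and neither had overlapping groups. Cxcr3 stood at 0.313 to 0.847 CPM in Control and 1.77 to 2.67 CPM in Ai-α4KO libraries, and Cxcr6 at 0.136 to 0.665 CPM and 0.740 to 2.495 CPM. Of 9 T cell markers tested in BAT 6 rose, while Cd3e, Cd8a and Cd6 did not pass, and of 6 NK cell markers 5 rose. The 10 T cell markers in the table summed to 3.08 to 6.10 CPM in Control and 16.7 to 63.6 CPM in Ai-α4KO BAT and the NK cell markers to 1.32 to 3.63 and 9.04 to 34.2 CPM, and their part was not tested.

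Cx3cr1 had the smallest change in BAT, at 1.78, 2.74, 2.22, 3.53 and 2.31 CPM in Control and 5.91, 3.56, 5.55, 8.08 and 3.76 CPM in Ai-α4KO libraries. Its log2 fold change was 1.05 (SE 0.27, adjusted p = 0.00452 from edgeR). The groups did not overlap, but the call was lost in 6 of the 10 fits that left out a library. Ccr3 was at 0, 0.0782, 0, 1.13 and 0.0398 CPM in Control and 1.44, 2.33, 0.804, 1.77 and 1.02 CPM in Ai-α4KO BAT. Control library 4 lay within the Ai-α4KO range and the others near 0, so the log2 fold change was 2.42 (SE 0.86, adjusted p = 0.0275) with that library and 5.33 (adjusted p = 4.73e-05) without it.

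**Figure D3:**
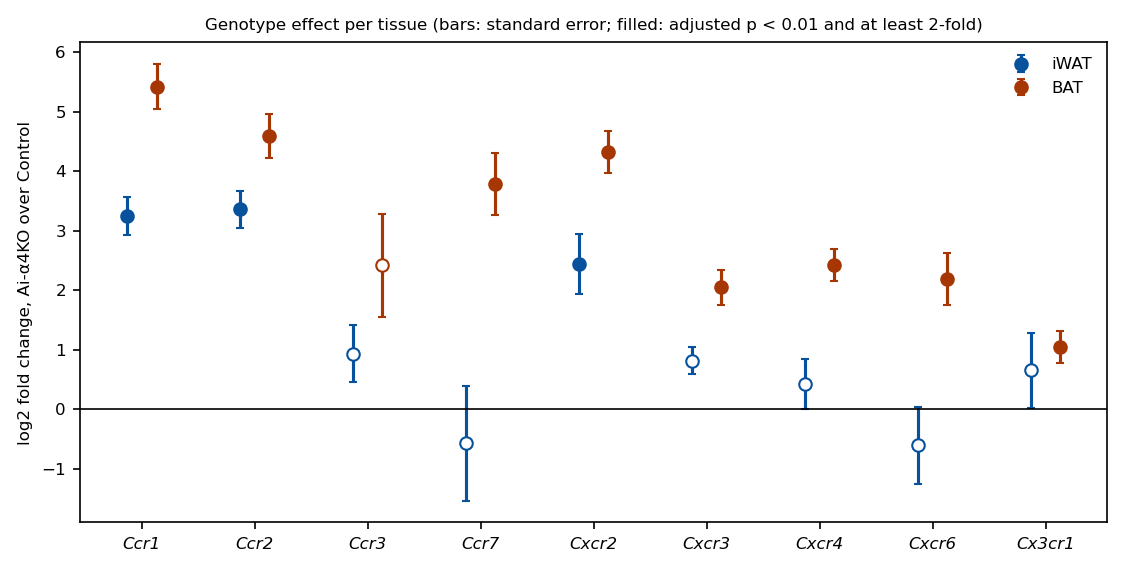
Log2 fold change of Ai-α4KO over Control for each receptor in iWAT and BAT, with bars of 1 standard error and filled points for those that passed both thresholds. There are 3 receptors filled in iWAT and 8 in BAT, and every BAT estimate is above the iWAT estimate of the same gene.

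The genotype effect was larger in BAT than in iWAT for all 9 receptors by estimate, and the difference itself passed the test for Ccr1. Its interaction, the BAT effect minus the iWAT effect, was 2.20 on the log2 scale (SE 0.48, adjusted p = 0.00590 from edgeR). Of 15230 genes tested, 3.26% passed with a larger effect in BAT. The general leukocyte markers Ptprc (1.63), Coro1a (2.68) and Laptm5 (2.49) passed as well, as did 6 of 10 macrophage markers. Of 9 neutrophil and 10 T cell markers 0 passed, and the part of these cell types was not tested. The call for Ccr1 was lost, with a log2 value still of 2.03 to 2.12, without iWAT Control library 2 or BAT Control library 1, 3 or 5. With DESeq2's Wald test 6 receptors passed, adding Ccr7, Cxcr2, Cxcr3, Cxcr4 and Cxcr6. That test also passed more genes in all with a larger effect in BAT, 1274 against 496 with edgeR. The interaction was 4.38 (SE 1.26, adjusted p = 0.0250) for Ccr7 and 2.04 (SE 0.53, adjusted p = 0.0159) for Cxcr4, which did not pass. Without Control iWAT libraries 1 and 4 the value for Ccr7 was 0.76 (adjusted p = 0.515), that for Cxcr4 was 1.29 (adjusted p = 0.0706), that for Cxcr6 was 1.30 (adjusted p = 0.239, from 2.82 with all libraries) and that for Ccr1 was 2.62 (adjusted p = 0.00239).

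In Control mice 8 of the 9 receptors were lower in BAT than in iWAT and 0 were higher, beside 15.4% of all genes that were lower and 7.34% that were higher. At an unadjusted p below 0.05, 0 receptors were higher. Of the marker genes, 3 of 3 general leukocyte, 9 of 10 macrophage and 10 of 10 T cell markers were lower in Control BAT too. So were 2 of 9 neutrophil markers, and the part of these cell types was not tested. Ccr1 fell by 2.91 (SE 0.37, adjusted p = 2.57e-06 from edgeR) and Cxcr3 by 2.43 (SE 0.27, adjusted p = 5.24e-07) on the log2 scale, and neither had overlapping libraries. Cx3cr1 differed by 0.15 (SE 0.51, adjusted p = 0.825). Ccr3 was near the threshold (-2.75, SE 0.81, adjusted p = 0.00791), and its call was lost in 12 of 20 fits that left out a library. Without BAT Control library 4 its difference was -5.68 (adjusted p = 9.97e-06). Without Control iWAT libraries 1 and 4, 4 receptors (Ccr1, Ccr2, Ccr3 and Cxcr3) were lower, beside 12.5% of all genes. In Ai-α4KO mice only Cxcr3 was lower in BAT by the test, with a log2 difference of -1.17 (SE 0.24, adjusted p = 9.64e-04), beside 4.09% of all genes. Without Ai-α4KO iWAT library 3 its value was -0.99, under the fold threshold, and without Ai-α4KO iWAT library 1 Cx3cr1 was higher in BAT by 1.69 (adjusted p = 0.00154). Ccr3 was at -1.21 (adjusted p = 0.182) and Ccr2 at -0.90 (SE 0.33, adjusted p = 0.0373).

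Levels were compared between receptors as FPKM, which is per transcript length. Ccr2 had the highest median FPKM of the 9 in every group, at 16.2 in Control and 183 in Ai-α4KO iWAT and at 2.29 and 87.4 in BAT. In Control BAT the median of Cxcr4, at 2.21 FPKM, was close behind, and Ccr2 was above Cxcr4 in 4 of 5 libraries. In both Ai-α4KO tissues the order began Ccr2, Ccr1, Cxcr4, and it held in every library. Ccr1 and Ccr2 made up a median 69.2% of the summed FPKM of the receptors in Control and 90.9% in Ai-α4KO iWAT. The Control share was 33.8% and 37.0% in libraries 1 and 4 and 69.2% to 85.1% in the other 3, below the 86.1% to 93.8% of the Ai-α4KO libraries in each case. In BAT the shares were 39.003% to 64.4% in Control and 77.2% to 91.2% in Ai-α4KO libraries, with medians of 51.7% and 84.1%. Ccr3 was last in Control iWAT, Control BAT and Ai-α4KO BAT, and Cx3cr1 was last in Ai-α4KO iWAT, with medians under 1 FPKM.

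The receptors moved by different amounts relative to the summed counts of general leukocyte markers. For this comparison, chosen after seeing the data, the summed counts of Ptprc, Coro1a and Laptm5, genes of nearly all leukocytes, served as library size. In Control BAT, Ccr1 was at 43.5 to 103 counts per 1000 of these counts and in Ai-α4KO BAT at 193 to 323. Per leukocyte marker count, Ccr1 rose by 1.83 (adjusted p = 9.78e-07 from edgeR) and Ccr2 by 1.01 (adjusted p = 0.00116) on the log2 scale, and 0.851% of all genes rose. Cx3cr1 went from 52.8 to 68.6 per 1000 in Control to 5.76 to 19.9 per 1000 in Ai-α4KO BAT, with no overlap, and fell by 2.52 (adjusted p = 3.31e-07). Cxcr3 fell by 1.62 (adjusted p = 3.96e-04), Cxcr4 by 1.36 (adjusted p = 1.61e-04) and Cxcr6 by 1.47 (adjusted p = 0.00300) on the same scale. Their libraries did not overlap either, and the share of all genes without overlap was not counted on this scale. Since 91.8% of all genes fell on this scale, with a median of -3.75, the falls of the 4 receptors are no more frequent than those of other genes, and the value for Cx3cr1 was above that median. The rise of Ccr2 sat at the fold threshold and was lost in 5 of 10 fits that left out a library, and the fall of Cxcr6 was lost without Control library 2 (-1.12, adjusted p = 0.0309).

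In iWAT, Ccr1 was at 28.1 to 190 counts per 1000 leukocyte marker counts in Control and 187 to 348 in Ai-α4KO libraries. It rose by 1.26 (adjusted p = 0.00675 from edgeR) and Ccr2 by 1.37 (adjusted p = 0.00464), beside 1.33% of all genes. Ccr7 fell by 1.48 (adjusted p = 0.00427) and Cxcr6 by 1.80 (adjusted p = 0.00142), beside 75.1% of all genes. No call of these 4 was kept in all fits that left out a library, and without Ai-α4KO library 5 or Control library 4 none was. The 3 markers did not move alike in iWAT, with log2 fold changes of 2.04 for Ptprc, 1.30 for Laptm5 and 0.87 for Coro1a (adjusted p = 0.175 from edgeR). Control libraries 1 and 4 had the highest sums of the 3 markers in Control iWAT. Without both, 2 receptors fell, Ccr3 (-1.73, adjusted p = 0.00426) and Cxcr3 (-1.04, adjusted p = 0.00117), in place of Ccr7 and Cxcr6, beside 83.1% of all genes. In that fit 0 receptors rose by edgeR's test, with Ccr1 at 0.69 (adjusted p = 0.0373) and Ccr2 at 0.84 (adjusted p = 0.0121), and Ccr7 was at 0.94 (adjusted p = 0.0254).

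**Figure D4:**
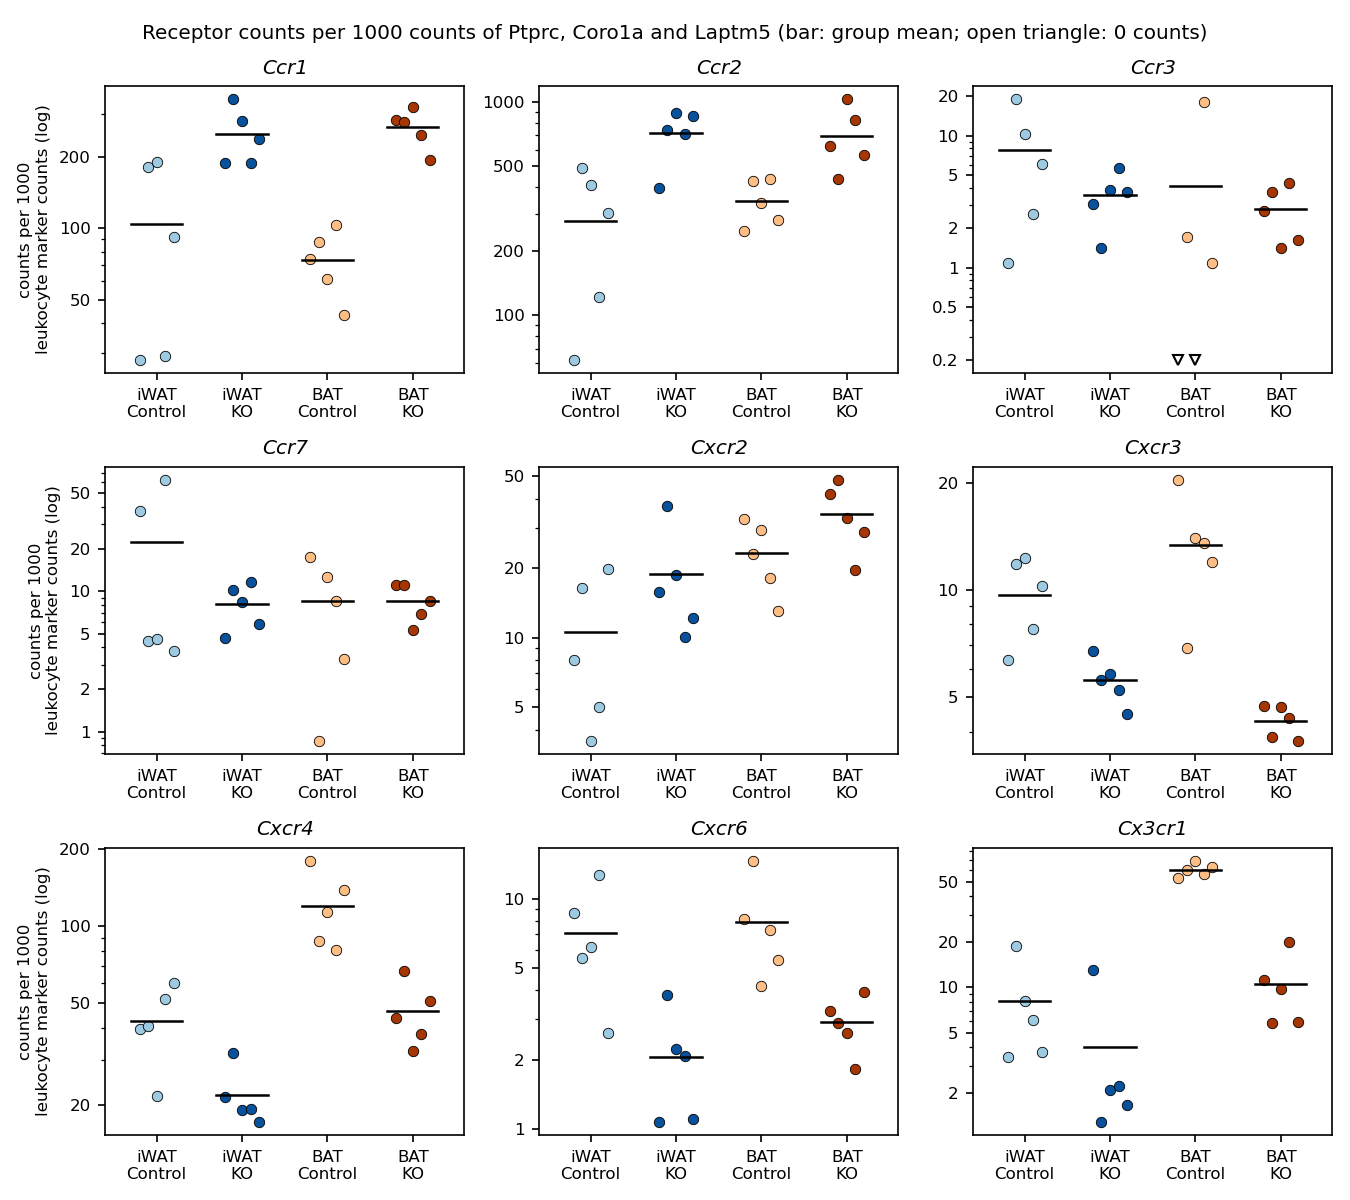
Counts of each receptor per 1000 summed counts of Ptprc, Coro1a and Laptm5 (log axis) in every library of the 4 groups, with bars at the group mean and open triangles for 0 counts. In BAT, Ccr1 lies higher in all Ai-α4KO libraries, and Cx3cr1, Cxcr3, Cxcr4 and Cxcr6 lie lower in all of them.

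Of 22 ligands listed for the receptors, 15 rose in iWAT, and 15 of the 21 tested rose in BAT. All 3 ligands of Ccr2 rose in iWAT and in BAT, with log2 fold changes for Ccl2 of 6.39 (SE 0.24, adjusted p = 5.74e-08 from edgeR) in iWAT and 6.93 (SE 0.43, adjusted p = 1.21e-07) in BAT. All 5 ligands of Cxcr2 rose in both tissues, led by Cxcl1 at 8.30 (SE 0.30) in iWAT and 7.74 (SE 0.50) in BAT. Of the 5 ligands of Ccr1, 4 rose in iWAT and 5 in BAT. Of all genes tested, 11.3% rose in iWAT and 18.2% in BAT. Without Control iWAT libraries 1 and 4, all 5 ligands of Ccr1 rose in iWAT. Of the 3 ligands of Ccr3, 0 rose in iWAT and 2 in BAT, and 1, Ccl5, rose in iWAT without those libraries. Ccl5, also a ligand of Ccr1, was at 2.69 (adjusted p = 0.0351 from edgeR) in iWAT with all libraries and 6.02 (adjusted p = 1.18e-05) without them. The eotaxins Ccl11 and Ccl24 were at 0.47 (adjusted p = 0.190) and 0.35 (adjusted p = 0.621) in iWAT, and in BAT Ccl11 was at -0.0867 (adjusted p = 0.737) and Ccl24 rose by 1.69 (adjusted p = 0.00762 from edgeR). Cxcl10, a ligand of Cxcr3, rose by 7.38 in iWAT and 4.61 in BAT on the log2 scale, while Cxcl9 was at 0.24 (adjusted p = 0.323) and 0.10 (adjusted p = 0.783).

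Cxcl12, the ligand of Cxcr4, rose by 1.18 (adjusted p = 1.86e-04 from edgeR) in iWAT and was at 0.81 (adjusted p = 2.65e-04) in BAT, under the fold threshold. Cxcl16, the ligand of Cxcr6, rose by 1.74 in iWAT and 3.48 in BAT. Cx3cl1, the ligand of Cx3cr1, was at -0.81 (adjusted p = 0.125) and 0.94 (adjusted p = 0.00816), and neither passed. The ligands of Ccr7, Ccl19 and Ccl21a, passed in neither tissue, with Ccl19 at -3.03 (SE 1.06, adjusted p = 0.0312 from edgeR) and Ccl21a at -3.29 (adjusted p = 0.0190) in iWAT. Ccl19 was at 21.1 and 28.01 CPM in Control iWAT libraries 1 and 4 and at 0.639 to 0.839 CPM in the other Control libraries, against 0.943 to 1.997 CPM in Ai-α4KO libraries. Without those 2 Control libraries, Ccl19 was at 0.75 (adjusted p = 0.0894) and Ccl21a at -0.65 (adjusted p = 0.466). Ccl21a has near-identical copies in the genome, so its counts are uncertain.

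**Figure D5:**
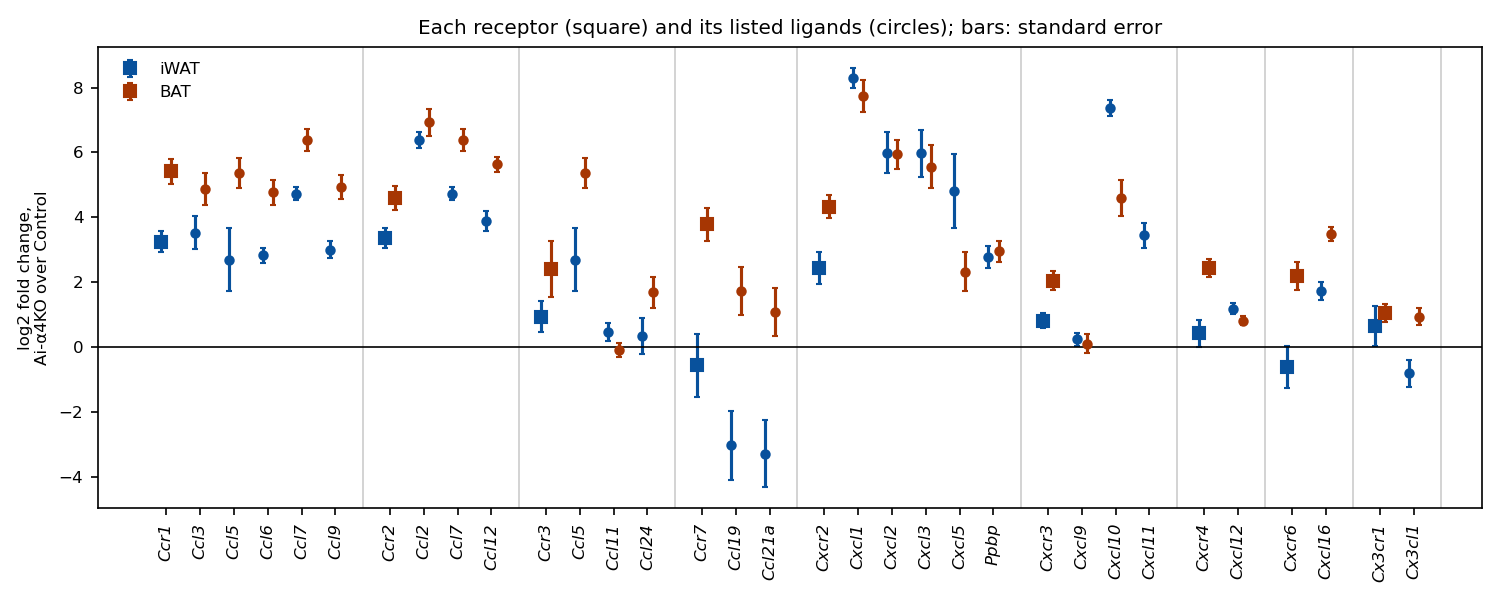
Log2 fold change of Ai-α4KO over Control in iWAT and BAT for each receptor (square) and its listed ligands (circles), with bars of 1 standard error. The ligands of Ccr1, Ccr2 and Cxcr2 lie above 0 in both tissues, and those of Ccr7 lie below 0 in iWAT with all libraries, where Ccl19 is above 0 without Control libraries 1 and 4.

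Among other chemokine receptors of the list, Ccrl2, a chemerin-binding receptor, rose by 1.83 in iWAT and 1.18 in BAT on the log2 scale. In BAT, Ccr9, a gut-homing receptor of lymphocytes, went from a mean of 0.0581 to 2.11 CPM (log2 fold change 5.07, SE 0.65), with at most 2 counts per Control library, so the size of the fold depends on the prior count. Also in BAT, Ackr1, an atypical receptor of venular endothelium and erythroid cells, rose by 1.72 (SE 0.29) and Xcr1, a receptor of cross-presenting dendritic cells, by 1.45 (SE 0.42). The iWAT values of Ccr9, Ackr1 and Xcr1 were 1.05 (adjusted p = 0.233 from edgeR), 0.84 (adjusted p = 6.96e-04) and 0.40 (adjusted p = 0.448). With Control iWAT libraries 1 and 4 left out, edgeR gave 3.10 (adjusted p = 5.76e-04), 0.66 (adjusted p = 0.00555) and 1.18 (adjusted p = 0.0216) in that order. Ccr10 fell by 2.14 in BAT (adjusted p = 5.75e-04 from edgeR). Of 26 genes of receptor signaling, 9 rose and 1 fell in iWAT, and 13 rose and 2 fell in BAT, beside 11.3% of all genes that rose and 10.7% that fell in iWAT and 18.2% and 13.3% in BAT. Without Control iWAT libraries 1 and 4, 13 rose and 1 fell in iWAT, beside 11.9% and 11.8% of all genes. Pik3r5, a regulatory subunit of PI3Kγ, rose by 2.23 (SE 0.23) in iWAT and 4.24 (SE 0.31) in BAT, and Dock2, a Rac activator of leukocytes, by 1.65 and 3.29. Rgs2, which dampens G protein signaling, fell by 2.13 in iWAT and 2.38 in BAT.

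The receptors differed in which genes followed the same pattern over the 20 libraries. Likeness was the root mean square difference of centred log2 CPM over 15230 genes, as a description. Ccr1 was most like Ccl9 (0.274) and Ccl6 (0.335), and Ccr2 most like Clec4a2 (0.273) and Cd200r1 (0.322). Cxcr2 was most like Csf3r (0.448), S100a8 (0.489) and S100a9 (0.528), which are neutrophil genes, and Cxcr6 most like Ctsw (0.373) and Nkg7 (0.374), which are cytotoxic lymphocyte genes. The nearest gene was E2f1 (0.343) for Cxcr3, Arhgap22 (0.355) for Cxcr4, Ccl22 (0.569) for Ccr7, Cd209c (0.588) for Ccr3 and Hbegf (0.590) for Cx3cr1. Among the receptors themselves, Ccr1 and Ccr2 were the closest pair, at 0.499. The points share libraries, tissue and genotype.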

How the data were processed

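The authors deposited an expected count (an estimated number of reads, not normalized) and an FPKM value for each of 25219 genes in 20 libraries. Libraries were stranded mRNA, and the submitters' processing notes name bcl2fastq 2, STAR 2.5.3a and mm10. The counting tool and annotation are not given in the sources used here. Of the nonzero counts 76.7% are whole, and counts were rounded.

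Counts were analysed in R 4.3.3 with edgeR 4.0.16 (filterByExpr, TMM, quasi-likelihood test, Benjamini-Hochberg over all genes tested), within each tissue for genotype and over all 20 libraries for the interaction and tissue differences. CPM used TMM over 20 libraries, and log2 values for likeness a prior count of 2. Passing meant an adjusted p below 0.01 and at least 2-fold, or the adjusted p alone for the interaction. A library at 0 allows up to 3 counts, for counting error only. Genes named are the 9 members, Igbp1, genes of the ligand, receptor and signaling lists and, per member, the 3 genes of most similar pattern. Marker genes and Fyco1 were named outside this rule, after their values were seen. The members and lists were chosen with earlier results of these data known. Alternatives were DESeq2 1.42.0, limma 3.58.1 on log2(FPKM + 1) and log2(FPKM + 0.1), other scalings and filters, a replicate block, and leaving out libraries. The scripts were tested on simulated data. Promoters are from RefSeq (GRCm38.p6). A gene of the receptor list, and the counts over that list, are not reported here.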

Additional observations from a re-analysis of the deposited data

Results flagged for a closer look

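In 3 of 36 groups of 5 libraries, a library lay far from the others, and chance gives this in about 1 of 20 groups. Ccr3 in Control BAT library 4 was at 1.13 CPM, against 0 to 0.0782 CPM in the other 4. Cxcr2 in Control BAT library 5 was at 0.478 CPM, against 0.952 to 1.13 CPM. Cxcr3 in Ai-α4KO BAT library 4 was at 1.77 CPM, against 2.38 to 2.67 CPM.

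The genotype effect on Ccr1 differed between tissues by 2.20 on the log2 scale, by edgeR's interaction test, and the call was lost in 4 of 20 fits that left out a library.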

How the results depend on the processing

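Ccr1, Ccr2 and Cxcr2 passed the test in both tissues under every alternative run for the genotype effect. In iWAT 3 receptors passed in each fit without 1 library, and 5 without Control libraries 1 and 4. No alternative, DESeq2 and limma included, gave a receptor that fell in either tissue. In BAT 7 to 9 passed without 1 library, and 5 both with at least 10 counts in every library and with limma on log2(FPKM + 1), where Cxcr3 and Cx3cr1 were under the fold threshold and Cxcr6 was not tested. Requiring 10 counts removes 4 receptors from the BAT test. With no limit on the fold change 3140 genes rose in iWAT.

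Reversed estimates were those of Ccr7 in iWAT, at 0.43 with limma on log2(FPKM + 1), 1.06 with log2(FPKM + 0.1) with or without the filter, 1.24 with the replicate block, 3.10 without Control libraries 1 and 4, and -0.89 to 0.0911 without 1 library. Cxcr6 in iWAT was at 0.96 without Control libraries 1 and 4, and Cx3cr1 in iWAT at -0.33 to 0.92 without 1 library. Cx3cr1 between Control tissues was at -0.0852 with library totals, and at -0.0683 to 0.42 without 1 library, and Cxcr6 between Ai-α4KO tissues at -0.32 to 0.16.

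For the interaction, 6 receptors passed with DESeq2 (1274 genes with a larger effect in BAT), 2 with at least 10 counts, and 0 to 3 without 1 library. The interaction for Ccr1 was lost in 4 of 20 such fits, while Cxcr4 passed without iWAT Control 3 and Ccr3 and Cxcr3 without BAT Control 4. Replicate numbers showed no clear pairing of the samples. Correlations of same-numbered libraries ran from -0.451 to 0.215 between genotypes, where 1 of 10 libraries correlated best with its own number. Between tissues they ran from -0.265 to 0.244 with 4 of 10, which does not settle whether the same mouse gave both tissues. With the replicate block 3 receptors rose in iWAT, 9 in BAT (Ccr3 adjusted p = 0.00768), and 0 passed the interaction (Ccr1 adjusted p = 0.0121).

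Between Control tissues 6 to 8 receptors were lower without 1 library, 4 with at least 10 counts and 4 without Control iWAT libraries 1 and 4. Between Ai-α4KO tissues 0 to 1 were lower without 1 library, and with at least 10 counts 0 receptors and 292 genes. All-gene counts without 1 library were 1465 to 1736 in iWAT, 2414 to 2634 in BAT, 309 to 853 for the interaction, 2134 to 2389 and 278 to 629 between tissues.

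Per leukocyte marker count, a comparison added after seeing the data, the receptors that rose in iWAT numbered 0 to 2 without 1 library, 1 per macrophage marker count and 0 without Control libraries 1 and 4, and those that fell 0 to 2, 4 and 2 in that order. In BAT 1 to 2 rose and 3 to 4 fell without 1 library, and 1 rose per macrophage marker count. Ccr7 was at 0.94 in iWAT without those Control libraries, and in BAT at -0.0163 per macrophage marker count and -0.25 to 0.49 without 1 library, with Ccr3 at -1.14 to 1.73. The causes were not tested. Library totals without factors moved the all-gene median to 0.134 in iWAT and 0.232 in BAT.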
